A study of Mus musculus with 2 samples.

Results

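Genes of B cells and of plasma cells were examined in ovarian RNA of PNA mice and control mice: *Jchain*, *Ighg*, *Ighm* and *Igkv8-30* for antibody chains and their linker, *Cd79a*, *Cd79b* and *Ms4a1* for B cell identity, and *Mzb1* and *Xbp1* for plasma cells. Every probe set (a group of short oligonucleotides that measures a transcript) whose deposited gene name equals one of these 9 names was taken, which gave 24 of 45037 analysed probe sets. *Jchain* is listed under its older symbol *Igj* and was matched through its Entrez ID. All 9 genes were chosen with earlier results of these arrays known, and the antibody genes with their ratios already known. All these ratios are therefore a description of the arrays and are supported by no test.

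PNA (prenatally androgenized) mice were female offspring of ICR dams injected daily under the skin with 350 µg DHT (dihydrotestosterone, an androgen) in 70 µl sesame oil on gestation days 16 to 18, and control mice were offspring of ICR dams given the oil alone. Each group consisted of 5 mouse ovaries and was measured on 1 Affymetrix Mouse Genome 430 2.0 array. The labels describe anaesthesia on diestrus, and name both fixation of ovaries in Bouin's solution and extraction of RNA with Trizol. The sources used here give neither the age at which these ovaries were taken nor the way in which RNA of the 5 ovaries was combined.

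A B cell carries an antibody in its membrane as a receptor, held by the CD79 pair, and begins with the IgM class. After activation it can switch the constant part of the heavy chain to an IgG or IgA class. On becoming a plasma cell it lowers many identity genes, including *Ms4a1* and *Pax5*, and turns to making and secreting antibody under the transcription factors encoded by *Prdm1*, *Irf4* and *Xbp1*. The J chain links antibody units into IgM pentamers and IgA dimers.

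Values are signal intensities in arbitrary units, and each log2 ratio is PNA over control. Following the study's selection criterion, a probe set or gene counted as higher or lower from 1.5-fold on. Signals under the 40th percentile of an array (30.6 on the PNA array and 30.4 on the control array) were treated as too dim to measure, and this level is called the floor. No direction was read from a probe set that was under the floor on both arrays. Where only a single array was under it, the fold is a bound taken against the floor, although counts rest on the measured ratio. Since each group had 1 array, no SD, p-value or replicate comparison exists, and the precision of every value is limited by the number of arrays. Signals are compared between arrays for the same probe set and not between probe sets. The median signal was 49.5 on the PNA array and 48.7 on the control array, and the median log2 ratio of the 14117 genes that passed the floor on either array was -0.01. All 13 ovary markers lay above the floor, and 2 of them were at least 1.5-fold higher in PNA ovaries: *Cyp19a1*, the aromatase (1578 in PNA ovaries and 388 in control ovaries), and *Amh*, the granulosa cell hormone (199 in PNA ovaries and 119 in control ovaries). No ovary marker was lower by that much. Of all genes above the floor, 2.49% were at least 1.5-fold higher and 2.16% were lower. These shares apply beside every gene count below, except those under alternative processing. Nothing is read from counts of 0 or 1 in short lists.

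The promoter windows of 3 members were available from RefSeq on GRCm38.p6, and they are shown because these members belong to the 3 roles compared: *Jchain*, *Cd79a* and *Xbp1*. Each window runs 5′ to 3′ on the gene's strand, from 250 bases before to 50 bases after the annotated start. The *Jchain* window is chr5:88527848-88528147 on the minus strand, the *Cd79a* window chr7:24897247-24897546 on the plus strand, and the *Xbp1* window chr11:5520391-5520690 on the plus strand. Capitals mark CAGGTG or its reverse complement CACCTG, an E-box that the E2A proteins of B cells are known to bind.
Jchain: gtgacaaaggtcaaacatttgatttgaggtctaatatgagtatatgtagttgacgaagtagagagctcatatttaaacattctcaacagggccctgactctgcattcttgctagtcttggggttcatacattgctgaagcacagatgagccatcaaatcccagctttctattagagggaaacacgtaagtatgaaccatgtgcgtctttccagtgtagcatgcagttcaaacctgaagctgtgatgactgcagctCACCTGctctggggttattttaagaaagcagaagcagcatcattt
Cd79a: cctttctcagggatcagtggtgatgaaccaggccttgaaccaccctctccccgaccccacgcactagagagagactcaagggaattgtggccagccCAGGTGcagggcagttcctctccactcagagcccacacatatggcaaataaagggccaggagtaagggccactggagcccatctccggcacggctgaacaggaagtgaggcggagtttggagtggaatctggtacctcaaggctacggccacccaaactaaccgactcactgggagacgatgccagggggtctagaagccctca
Xbp1: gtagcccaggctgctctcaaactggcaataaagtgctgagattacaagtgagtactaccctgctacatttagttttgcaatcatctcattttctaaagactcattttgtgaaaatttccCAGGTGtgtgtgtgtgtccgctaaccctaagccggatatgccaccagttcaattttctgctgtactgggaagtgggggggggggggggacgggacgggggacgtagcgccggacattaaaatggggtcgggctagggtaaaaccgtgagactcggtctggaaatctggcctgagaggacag
The octamer ATGCAAAT, known from antibody gene promoters, was searched on both strands together with its reverse complement ATTTGCAT. It was in 0 of these 3 windows and in 570 of 32851 windows of all genes (1.74%). The E-box, which was chosen after the sequences had been seen, was present 1 time in each of the 3 windows and was held by 6640 of the 32851 windows (20.2%). It began 5 bases after the start in *Jchain*, 154 bases before it in *Cd79a* and 131 bases before it in *Xbp1*. A match is a description of the letters and not evidence of binding.

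Of the 24 probe sets, 15 passed the floor on either array, and 7 of these were at least 1.5-fold higher in PNA ovaries (6 of the 14 that passed it on both arrays), against 3.04% of all 27721 probe sets above the floor. None of the 15 was lower by that much, against 2.21% of all. By role, 7 of 10 antibody probe sets above the floor were higher, 0 of 5 plasma cell probe sets were higher, and 0 of 4 B cell identity probe sets lay above the floor. Counted by gene, with each gene represented by its brightest probe set, 3 of 6 members above the floor were higher (*Jchain*, *Ighg* and *Igkv8-30*), against 2.49% of all genes above the floor. Because the antibody members were picked with these ratios known, nothing is read from the contrast between roles or with these shares. The probe sets nearest to the threshold both carried the name *Ighm*, at 1.60-fold just inside it and 1.48-fold just outside it.

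**Figure D1:**
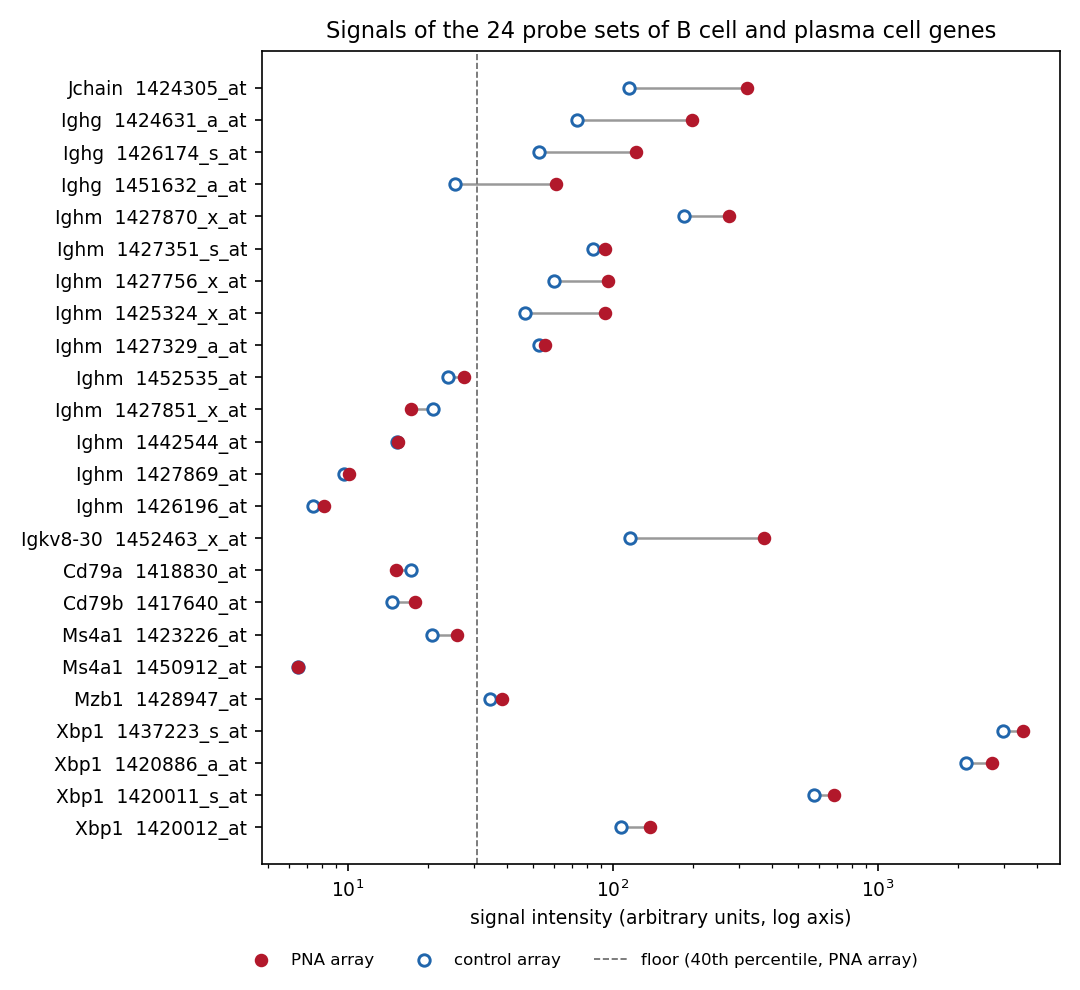
Signal intensity (log axis) of the 24 probe sets on the PNA array (filled red points) and on the control array (open blue points), with the floor of the PNA array as a dashed line. The *Jchain*, *Ighg* and *Igkv8-30* pairs lie far apart with the PNA array to the right, while the 4 pairs of *Cd79a*, *Cd79b* and *Ms4a1* lie left of the floor and those of *Mzb1* and *Xbp1* lie close together.

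*Jchain*, measured by 1424305_at within the gene's own locus (chr5:88520512-88527891, minus strand), had a signal of 319 on the PNA array and 115 on the control array. The log2 ratio was 1.47, or 2.77-fold, which placed it at rank 59 from the top among the 45037 probe sets. The probe set names a single gene and has no letter in its suffix, which on this chip marks probes designed to be specific to a single transcript.

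The kappa light chain, which pairs with any class of heavy chain, was represented by *Igkv8-30*, a variable gene. Its probe set 1452463_x_at had a signal of 371 on the PNA array and 116 on the control array, a log2 ratio of 1.68 (3.21-fold, rank 37). The deposited alignment of this probe set runs from chr6:70193258 to chr6:70726833 on the plus strand and reaches into *Igkc*, the exon of the kappa constant region (chr6:70726435-70726754). An alignment of this kind spans the germline distance between a variable gene and the constant region that are joined in an antibody transcript, so the signal is not particular to the named variable gene. The suffix _x_at marks probes that can also bind other transcripts, and of all 1721 probe sets of that kind above the floor 2.38% were at least 1.5-fold higher.

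*Ighg*, the name given to heavy chains of the IgG class, had 3 probe sets, and all 3 were higher in PNA ovaries. The probe set 1424631_a_at had a signal of 199 on the PNA array and 73.1 on the control array (log2 ratio 1.44). The probe set 1426174_s_at had 123 on the PNA array and 52.8 on the control array (log2 ratio 1.22). Both alignments end in the constant region of *Ighg2b* (chr12:113304314-113307933). The probe set 1451632_a_at, which reaches the constant region of *Ighg2c* (chr12:113287389-113288932), had 60.9 on the PNA array and 25.4, under the floor, on the control array, and was thus at least 2.00-fold higher.

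*Ighm*, the heavy chain of the IgM class, is named by 10 probe sets, of which 5 lay above the floor and 2 were higher. The brightest, 1427870_x_at, had 275 on the PNA array and 186 on the control array (log2 ratio 0.57), just under the threshold. Those past it were 1425324_x_at, with 93.2 on the PNA array and 46.7 on the control array (log2 ratio 1.00), and 1427756_x_at, with 96.3 on the PNA array and 60.1 on the control array (log2 ratio 0.68). By the first alignment given, all 3 of these align to the constant region of *Ighg1* (chr12:113326541-113330523), an IgG class, in spite of their name. The 2 probe sets above the floor that align to the constant region of *Ighm* itself (chr12:113418826-113422730) had other values. The first, 1427351_s_at, had 93.5 on the PNA array and 84.0 on the control array (log2 ratio 0.15). The second, 1427329_a_at, had 55.6 on the PNA array and 52.8 on the control array (log2 ratio 0.07). Neither reached the threshold. The 5 remaining probe sets named *Ighm* lay under the floor on both arrays, between 8.11 and 27.4 on the PNA array and between 7.43 and 23.99 on the control array. One of these, 1427869_at, aligns to the strand opposite to the gene.

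Because the names and the alignments differed, all 69 probe sets named for an antibody chain gene were set in order by constant region. The region was the one that the deposited alignment reached, a rule chosen after the values had been seen. Only the first alignment given for a probe set was used, so a further match to another class would not show. Of the 69, 19 lay above the floor on both arrays, of which 16 were at least 1.5-fold higher and 0 were lower, with a median log2 ratio of 1.31. A further 6 passed it on the PNA array only, of which 3 were higher by the measured ratio and 2 by their bound. Together 19 of 25 were thus higher by the measured ratio, against 3.04% of all probe sets above the floor, and nothing is read from that difference because the antibody genes were picked by this ratio. The median log2 ratio of the 25 was 1.22 by measured ratios and 1.07 with the 6 at their bounds, and over all 69 probe sets it was 0.14. At the IgA constant region *Igha*, 3 of 3 probe sets above the floor were higher: 760 in PNA ovaries and 276 in control ovaries, 594 in PNA ovaries and 226 in control ovaries, and 351 in PNA ovaries and 141 in control ovaries. All 3 probe sets also name a variable gene. At *Igkc*, 6 of 6 were higher, with log2 ratios between 1.07 and 1.76. The one at 1.07, named *Igk*, aligns to the opposite strand, and the other 5 had log2 ratios from 1.17 to 1.76. The brightest of these, which names *Igkv8-30* together with other kappa genes and so is not counted among the 24, had 2253 on the PNA array and 727 on the control array.

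Within the IgG classes the ratios spanned a wide range. At *Ighg2b* both probe sets above the floor were higher (log2 ratios 1.22 and 1.44), and so were both at *Ighg2c*, where the probe set named *Ighg2c* had 194 on the PNA array and 71.8 on the control array. At *Ighg1*, 3 of 4 were higher, with log2 ratios from 0.57 to 1.00. The probe set named *Ighg1* had 147 on the PNA array and 84.7 on the control array (log2 ratio 0.79). *Ighg3* had 31.5 on the PNA array and 29.3, under the floor, on the control array, and was at least 1.03-fold higher, short of the threshold. At *Ighm* 0 of 2 were higher, and at *Ighd*, *Iglc1* and *Iglc2* no probe set lay above the floor. The classes were not set against each other by a test, since a single array per group gives none, and antibody genes share much of their sequence, so that a probe set can bind more than 1 of them.

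**Figure D2:**
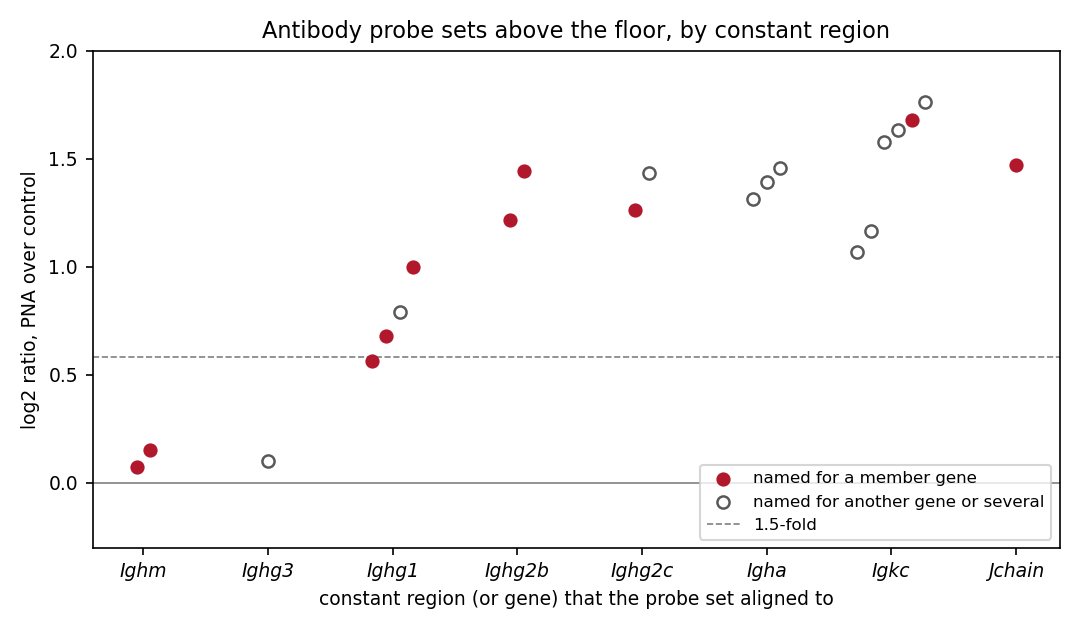
Log2 ratio (PNA over control) of each antibody probe set above the floor that reached a constant region, placed by that region, and of *Jchain*. Probe sets above the floor that reached no constant region are not drawn. Their measured log2 ratios were 2.40 in the heavy chain locus, 0.35 and 0.53 in the kappa locus and 0.69 in the lambda locus. Filled red points are named for a member and open points for another gene or for several genes. The *Ighm* points lie at 0.07 and 0.15, while the points named *Ighm* that align to *Ighg1* lie between 0.57 and 1.00 and those at *Igha*, *Igkc* and *Jchain* lie above 1. The *Ighg3* point and the member point at *Ighg2c* are measured ratios with the control array under the floor.

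As genes, 7 of 25 antibody chain genes lay above the floor on both arrays and 6 of these were higher, with a median log2 ratio of 1.44. A further 3 passed it on the PNA array only (*Igk-V28*, *Iglv1* and *Ighg3*), of which 2 were higher by the measured ratio and 1 by its bound. The median of these 10 genes was 1.30 by measured ratios and 1.07 with the 3 at their bounds, and over all 25 genes, dim ones included, it was 0.14. Apart from those already given, *Igk* (kappa chain) had 90.4 on the PNA array and 40.2 on the control array (log2 ratio 1.17). *Iglv1*, a lambda variable gene, had 40.4 on the PNA array and 25.0, under the floor, on the control array, and was at least 1.33-fold higher. *Igk-V28* had 59.96 on the PNA array and 11.4, under the floor, on the control array, and was at least 1.97-fold higher. It is named for a kappa variable gene, but its deposited alignment lies in the heavy chain locus (chr12:114487143-114487604), so it is uncertain which chain it measures. The other 15 antibody genes, nearly all single variable genes, lay under the floor on both arrays.

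The B cell identity members were all too dim for a direction. *Cd79a*, the alpha partner of the B cell receptor, had 15.3 on the PNA array and 17.4 on the control array. *Cd79b*, its beta partner, had 17.9 on the PNA array and 14.7 on the control array. *Ms4a1*, which encodes the surface protein CD20, had 25.8 on the PNA array and 20.7 on the control array by 1423226_at, and the same 6.49 on both arrays by 1450912_at. A signal under the floor shows only that the transcript was not measured on these arrays and not that B cells were missing. In RNA of whole ovary, the number of cells of a type and the RNA that each cell makes cannot be told apart.

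Besides these 3 members, 13 of 26 measured genes of B cell identity and receptor signalling lay above the floor, of which 0 were higher and 2 were lower, against 2.49% and 2.16% of all genes above the floor. The median log2 ratio of the 13 was -0.06. The 2 lower genes were *Pik3ap1*, an adaptor that links the B cell receptor to PI3K and also works in other immune cells (199 in PNA ovaries and 479 in control ovaries, log2 ratio -1.27), and *Bach2*, a repressor that holds back the plasma cell program (61.4 in PNA ovaries and 106 in control ovaries, log2 ratio -0.78). *Cd22*, an inhibitory co-receptor, had 86.0 in PNA ovaries and 58.8 in control ovaries (log2 ratio 0.55), under the threshold. *Pax5*, the factor that fixes B cell identity, lay under the floor at 23.0 in PNA ovaries and 19.7 in control ovaries. *Cr2*, *Fcer2a* and *Pou2af1* also lay under the floor on both arrays.

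Of the plasma cell members, *Mzb1*, a helper of antibody folding in the endoplasmic reticulum, was close to the floor, with 38.1 on the PNA array and 34.4 on the control array (log2 ratio 0.15). *Xbp1*, which drives expansion of the secretory apparatus and is also active in many other secreting cells, had 4 probe sets, and 0 reached 1.5-fold. They had 3542, 2690, 682 and 138 on the PNA array, against 2953, 2143, 576 and 108 in the same order on the control array. Their log2 ratios, from 0.25 to 0.36, were all above 0. The last of them, 1420012_at, aligns to the strand opposite to the gene.

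Across 22 plasma cell genes, 17 lay above the floor, 1 was higher and 0 were lower, against 2.49% and 2.16% of all genes above the floor. Their median log2 ratio was 0.08. The higher gene was *Jchain* itself, which also stands among the antibody chain genes. *Prdm1*, the factor that starts the plasma cell program, had 47.1 in PNA ovaries and 37.5 in control ovaries (log2 ratio 0.33). *Sdc1*, which encodes the plasma cell surface protein CD138 and is also made by epithelial cells, had 1975 in PNA ovaries and 1679 in control ovaries (log2 ratio 0.23). *Tent5c*, a poly(A) polymerase that stabilises antibody transcripts, had 434 in PNA ovaries and 297 in control ovaries (log2 ratio 0.54). None of these 3 reached the threshold. *Derl3*, of the pathway that removes misfolded proteins, had 268 in PNA ovaries and 374 in control ovaries (log2 ratio -0.48), likewise under it. *Irf4* lay under the floor on both arrays, with 14.4 in PNA ovaries and 13.0 in control ovaries, and so did *Tnfrsf17*, which encodes the survival receptor BCMA, with 17.1 in PNA ovaries and 17.5 in control ovaries.

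**Figure D3:**
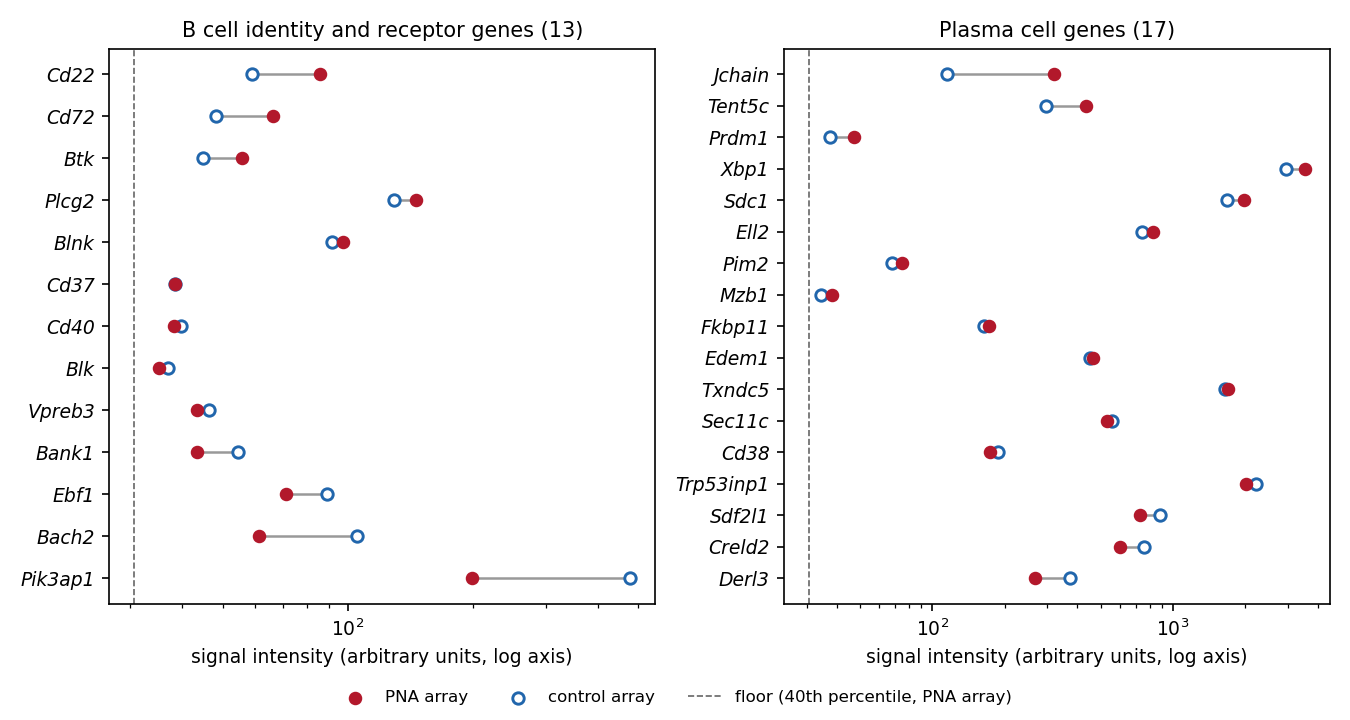
Signal intensity (log axis) of the 13 genes of B cell identity and receptor signalling (left) and the 17 plasma cell genes (right) that passed the floor, ordered by log2 ratio, with the PNA array as filled red points, the control array as open blue points and the floor of the PNA array as a dashed line. *Jchain* is the only gene of either panel that is at least 1.5-fold higher, and *Pik3ap1* and *Bach2* are lower.

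The machinery that a secreting plasma cell uses in quantity was measured by 31 genes of folding and secretion in the endoplasmic reticulum. All 31 lay above the floor, 0 were higher and 0 were lower, and the median log2 ratio was 0.02. *Hspa5*, the main chaperone, had 6976 in PNA ovaries and 7654 in control ovaries (log2 ratio -0.13), and *Hsp90b1*, a further chaperone of the same compartment, had 5456 in PNA ovaries and 6925 in control ovaries (log2 ratio -0.34). *Pdia3*, a disulfide isomerase, had 6166 in PNA ovaries and 6094 in control ovaries (log2 ratio 0.02). These genes are active in all ovarian cells, so their signal is not particular to plasma cells.

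Genes of earlier stages gave few calls, where 2.49% of all genes above the floor were higher and 2.16% were lower. Of 10 germinal centre genes above the floor 0 were higher and 1 was lower (median log2 ratio 0.05): *Cd83*, a surface protein of activated B cells and dendritic cells, with 122 in PNA ovaries and 186 in control ovaries (log2 ratio -0.61). Of 6 early B cell genes above the floor 0 were higher and 0 were lower (median log2 ratio 0.06). The 3 brightest were *Cd93*, with 596 in PNA ovaries and 654 in control ovaries, *Tcf3*, which encodes the E2A proteins, with 342 in PNA ovaries and 345 in control ovaries, and *Flt3*, a growth factor receptor of progenitors, with 69.1 in PNA ovaries and 58.7 in control ovaries. *Rag1*, *Rag2*, *Vpreb1* and *Dntt*, of the same list, lay under the floor on both arrays.

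Of 8 factors that attract B cells or sustain them, 1 was higher and 1 was lower (median log2 ratio -0.01). *Ltb*, the lymphotoxin beta chain that organises lymphoid tissue, had 89.2 in PNA ovaries and 49.7 in control ovaries (log2 ratio 0.84). *Cxcl12*, a chemokine that holds plasma cells in bone marrow and is made by many stromal cells, had 618 in PNA ovaries and 1818 in control ovaries (log2 ratio -1.56). *Cxcl13*, which draws B cells into follicles of lymph nodes, had 39.2 in PNA ovaries and 39.1 in control ovaries. *Tnfsf13b*, the survival factor BAFF, had 56.0 in PNA ovaries and 44.6 in control ovaries (log2 ratio 0.33), under the threshold. Of 7 antibody receptor and transport genes above the floor 0 reached 1.5-fold, and their log2 ratios lay between 0.06 and 0.36 (median 0.28). They included *Fcer1g*, the shared signalling chain, with 323 in PNA ovaries and 254 in control ovaries, and *Fcgr3*, an IgG receptor, with 288 in PNA ovaries and 239 in control ovaries. *Fcgrt*, which carries IgG across cells, had 812 in PNA ovaries and 779 in control ovaries. *Pigr*, the carrier of IgA across epithelia, lay under the floor on both arrays.

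**Figure D4:**
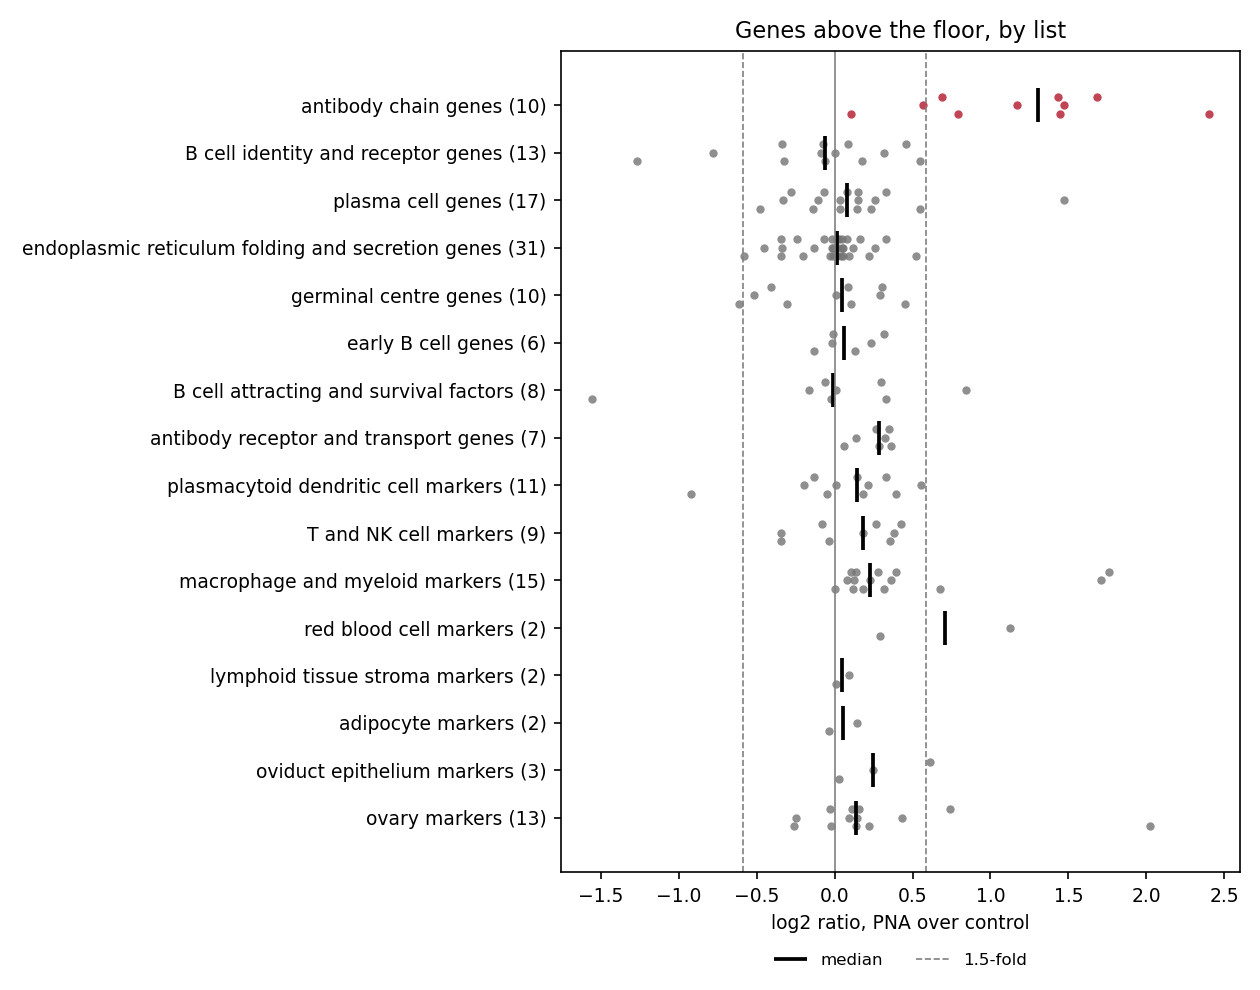
Log2 ratio (PNA over control) of every gene above the floor in 16 lists, with the number of genes in parentheses, the median of each list as a black bar and 1.5-fold as dashed lines. The antibody chain genes have a median of 1.30 by measured ratios, the 2 red blood cell markers 0.71, and the medians of the other 14 lists lie between -0.06 and 0.28.

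Some markers of other cells and of blood were also at least 1.5-fold higher in PNA ovaries. Of 7 probe sets for adult haemoglobin, 6 lay above the floor and 5 were at least 1.5-fold higher, against 3.04% of all probe sets above the floor. Among the 5, 1427866_x_at passed the floor on the PNA array only, with 55.1 there and 23.0 on the control array. Of 3 probe sets that name *Hba-a1* and *Hba-a2* together, 1428361_x_at had 7873 on the PNA array and 1601 on the control array (log2 ratio 2.30). Another of the 3, 1452757_s_at, had 7865 on the PNA array and 2418 on the control array (log2 ratio 1.70). A probe set that names *Hbb-b1*, *Hbb-b2* and others had 6298 on the PNA array and 2017 on the control array (log2 ratio 1.64). Of 2 red blood cell genes above the floor that a probe set names alone, 1 was higher: *Alas2*, an enzyme of haem synthesis, with 109 in PNA ovaries and 49.96 in control ovaries. The median log2 ratio of these 2 genes was 0.71, and they summed to 155 in PNA ovaries and 87.3 in control ovaries, while *Slc4a1* lay under the floor on both arrays. Of 15 macrophage and myeloid markers above the floor 3 were higher and 0 were lower (median log2 ratio 0.22): *S100a9* and *S100a8*, which are abundant in neutrophils, with 158 and 176 in PNA ovaries, against 46.7 and 54.0 in control ovaries, and *Cd14*, with 173 in PNA ovaries and 109 in control ovaries. Of all genes above the floor, 2.49% were higher. *Itgam* passed the floor on the PNA array only, and the median of the 14 markers above it on both arrays was 0.20. The 15 markers summed to 10986 in PNA ovaries and 9713 in control ovaries, and *Mpo* and *Cd163* lay under the floor on both arrays. The sum rests largely on *Lyz1* (4195 in PNA ovaries, 3906 in control ovaries) and *Lyz2* (2376 in PNA ovaries, 2246 in control ovaries). The part of blood or of these cells in the antibody signals was not tested.

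Markers of plasmacytoid dendritic cells, which also express *Jchain*, passed the floor in 11 cases, with 0 higher, 1 lower and a median log2 ratio of 0.14. *Ly6d* passed it on the PNA array only, and the median of the 10 markers above it on both arrays was 0.08. The lower gene was *Runx2*, with 794 in PNA ovaries and 1505 in control ovaries (log2 ratio -0.92), and *Siglech*, a defining marker of these cells in mice, had 46.1 in PNA ovaries and 36.7 in control ovaries (log2 ratio 0.33). The 11 genes summed to 4622 in PNA ovaries and 5329 in control ovaries, and without *Runx2* the other 10 summed to 3827 in PNA ovaries and 3824 in control ovaries. These sums rest largely on *Bst2* (1692 in PNA ovaries, 1491 in control ovaries) and *Tcf4* (1564 in PNA ovaries, 1790 in control ovaries). Of 9 T and NK cell markers above the floor 0 were higher and 0 were lower (median log2 ratio 0.18). *Prf1* passed the floor on the PNA array only, and the median of the 8 markers above it on both arrays was 0.07. The 9 markers summed to 623 in PNA ovaries and 604 in control ovaries. The brightest were *Zap70*, with 201 in PNA ovaries and 213 in control ovaries, *Cd3e*, with 82.0 in PNA ovaries and 72.2 in control ovaries, and *Lck*, with 78.0 in PNA ovaries and 58.0 in control ovaries. Lymphoid stroma and adipocyte markers each had 2 genes above the floor and 0 changed: besides *Cxcl13*, the stroma receptor *Ltbr* had 389 in PNA ovaries and 365 in control ovaries, and of the adipocyte genes *Fabp4* had 69.4 in PNA ovaries and 62.7 in control ovaries and *Retn* 44.6 in PNA ovaries and 45.7 in control ovaries. Of 3 oviduct markers above the floor 1 was higher, *Krt7*, a keratin of ducts, with 79.4 in PNA ovaries and 51.9 in control ovaries. *Wfdc2*, among these 3, passed the floor on the PNA array only.

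**Figure D5:**
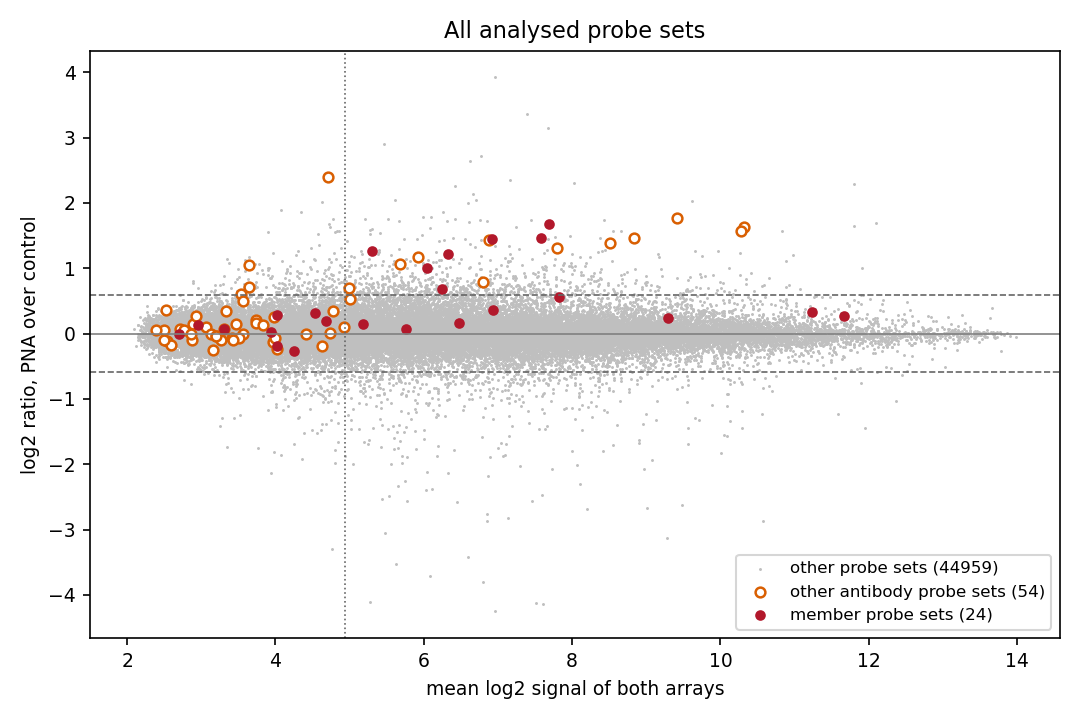
Log2 ratio (PNA over control) against the mean log2 signal of both arrays for all 45037 probe sets, with the 24 member probe sets in red, 54 other antibody probe sets as open orange circles, 1.5-fold as dashed lines and the floor of the PNA array as a dotted line. Of the 25 antibody probe sets that passed the floor on either array, 19 lie above the upper dashed line and 0 under the lower one. The *Xbp1* points lie near 0.3 at the bright end, except 1420012_at, which lies at 0.36 with a lower signal (138 on the PNA array, 108 on the control array).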

How the data were processed

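The authors deposited a linear signal intensity for each of 45101 probe sets of the Affymetrix Mouse Genome 430 2.0 array and, in further tables, log2 values from which each probe set's mean of both arrays had been subtracted. Which software turned the probes into signals, and how arrays were scaled, the sources used here do not say. The ratios of both tables differed by at most 2.01e-06, so they carry the same normalization. The authors' tables of differential genes and fold changes hold their own comparisons and were not used.

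The 64 control probe sets were left out. Ratios were computed in Python 3.11.15 (pandas 2.3.3, numpy 2.4.6). Only the step from signals to ratios was run on simulated arrays with known changes, which it returns by construction. The floor, the choice of probe set for a gene and the alignments were not checked in that way. No test was run, because each group had 1 array. Each gene stands for the brightest probe set, by mean log2 signal, that names it alone, which gave 20753 genes. By Entrez ID, 35046 probe sets were matched to the RefSeq gene table of GRCm38.p6. The build of the deposited alignments is not stated, and 97.5% of 34754 single-gene alignments overlapped the GRCm38.p6 gene of the same Entrez ID. A probe set was assigned to the constant region nearest to the 3′ end of its alignment. Where several alignments were given for a probe set, only the first was used.

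The members and all gene lists were chosen with earlier results of these data known. The genes named were all members, the antibody chain genes changed by at least 1.5-fold, up to 4 such genes of each other list, and the 3 brightest genes of a list with none. Other genes were named for their known role after their values had been seen. With 2 arrays no gene could be named for likeness of pattern. The alternatives were median scaling, quantile normalization, loess (fraction 0.3, statsmodels 0.14.6), 50 added to both signals, other floors, averaging over a gene's probe sets, a threshold of 2-fold and the series values. Promoter windows came from RefSeq, and protein sequences were not analysed here. The values of some listed genes are not reported here.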

Additional observations from a re-analysis of the deposited data

How the results depend on the processing

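No paired analysis was possible because each group had 1 array. *Jchain*, *Ighg* and *Igkv8-30* were at least 1.5-fold higher, and *Ighm* by its brightest probe set was not, under every alternative that gave them a value, and no called gene changed direction. With 50 added to both signals, 4 of 15 member probe sets were higher. Of all 14117 genes above the floor, 158 were then higher and 162 lower. Higher too were 1 of the ovary markers and 0 of the oviduct markers and of the B cell attracting and survival factors. Lower were 1 of the B cell identity and receptor genes (*Pik3ap1*) and 0 of the germinal centre genes. The median log2 ratio of the 10 antibody chain genes was then 0.74, against 1.30 without the added 50. At a fold change of at least 2, 89 of all 14117 genes above the floor were higher and 112 were lower. Higher too were 1 ovary marker, 0 oviduct markers and 0 attracting and survival factors. Lower were 1 of the B cell identity and receptor genes (*Pik3ap1*), 0 germinal centre genes and 0 plasmacytoid dendritic cell markers. Counts of member probe sets, antibody chain genes and myeloid markers fell too. The *Ighm* probe sets 1425324_x_at (1.997-fold) and 1427756_x_at (1.60-fold) were short of 2-fold. So were *Ighg1* (1.73-fold), *Iglv1* (1.61-fold) and *Cd14* (1.60-fold), and among the lower genes *Bach2* (1.72-fold lower). With the mean of a gene's probe sets, 2 red blood cell markers were higher, and 1 of the B cell identity and receptor genes and 1 of the folding and secretion genes were lower. Median scaling gave 1 lower gene of folding and secretion (*Hyou1*), a floor at the 60th percentile gave 0 higher oviduct markers, and no floor gave 1 higher gene each among B cell identity and receptor genes and lymphoid stroma markers, both under the floor otherwise. An alternative chosen after seeing the data took only probe sets named _at without a letter: 3 member probe sets above the floor remained, of which 1 was higher (*Jchain*), so that 1 member gene was higher, with 2 antibody chain genes higher, 1 gene of folding and secretion lower, and 0 oviduct and 0 red blood cell markers higher. Also chosen after seeing the data, *Ighm* taken by its brightest probe set in its own constant region had a log2 ratio of 0.15. With the floor required on both arrays, 6 of 7 antibody chain genes and 6 of 14 member probe sets were higher. The shares of all genes called with only _at probe sets, or with the floor required on both arrays, are not reported here. Nothing is read from the counts under those alternatives. Dim transcripts such as *Cd79a* have no direction here.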
